A study of Mus musculus with 42 samples.

Results

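The genes of the cytosolic ribosomal proteins were followed through 120 h of undirected differentiation of mouse embryonic stem cells into embryoid bodies. The members were the protein coding genes whose symbol starts with Rpl or Rps followed by a digit, together with Rplp0, Rplp1, Rplp2 and Rpsa. Kinase genes of the Rps6k family and pseudogene symbols were left out. The rule found 85 of the 14296 genes in the files, 51 named Rpl and 34 named Rps, and it used no measured value. Of these, 76 encode the canonical proteins of the ribosome, 45 of the large subunit and 31 of the small subunit. Another 8 are paralogs of a canonical gene (Rpl3l, Rpl7l1, Rpl10l, Rpl22l1, Rpl36al, Rpl39l, Rps27l and Rps27rt). The remaining member, Rps19bp1, encodes a SIRT1 regulator that binds RPS19 and matched by its symbol only. Rpl24 had no row and was not analysed here, and Fau and Rack1, whose proteins are also found in the ribosome, carry other symbols and are described apart from the members.

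The study used biological duplicate cultures of W9.5 cells, a single line of 129X1/SvJ background, harvested at 0 h and then every 6 h to 120 h after differentiation was induced. The 21 time points were each sampled in both replicates, A and B, 42 libraries in all, so p-values measure the spread between duplicates of 1 line. All groups shared the line, and each library came from a whole culture. The paper describes the differentiation as spontaneous after withdrawal of LIF. The 0 h libraries mark its induction, so comparisons with 0 h hold the change of culture as well as time. Poly-A RNA was sequenced with a stranded kit, and the values are log2 CPM, the log2 of a gene's counts scaled to a common library size, 1 unit being a doubling.

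Each cytosolic ribosome joins a large subunit, which forms peptide bonds, with a small subunit, which reads the mRNA. Most subunit proteins are present once per particle, their mRNAs are among the most abundant of growing cells, and their assembly needs ribosomal RNA made by RNA polymerase I. Most of these mRNAs begin with a cytosine and a run of pyrimidines, the terminal oligopyrimidine motif, through which mTOR signaling and LARP1 control their translation. Stem cells are known for a comparatively low rate of translation that changes during differentiation, but mRNA levels alone, as measured here, do not report translation.

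To show the sequence these genes share around their starts, 30 bases are printed for members that results below turn on and for Rps6 and Rpl38 as examples of the motif. Each stretch holds 15 bases upstream of the start annotated by RefSeq (GRCm38.p6) and the first 15 bases of exon 1, which are 5′ UTR, read 5′ to 3′ on the gene's own strand. Capitals mark the run of at least 5 pyrimidines, opening with C, that lies nearest to the start. The stretches run over chr4:86857353-86857382 (Rps6, minus strand), chr11:114668565-114668594 (Rpl38, plus), chr7:109519180-109519209 (Rpl27a, plus), chr1:39367836-39367865 (Rpl31, plus) and chr9:44407699-44407728 (Rps25, plus). The paralogs lie at chr17:46782642-46782671 (Rpl7l1, minus), chr12:66284387-66284416 (Rpl10l, minus), chr16:10170213-10170242 (Rpl39l, plus) and chr17:24727811-24727840 (Rpl3l, plus).
Rps6: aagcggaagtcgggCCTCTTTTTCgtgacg
Rpl38: agcggaagcctcgttCTTTCCCCgttctct
Rpl27a: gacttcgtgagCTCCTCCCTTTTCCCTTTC
Rpl31: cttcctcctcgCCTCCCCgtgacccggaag
Rps25: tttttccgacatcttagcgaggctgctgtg
Rpl7l1: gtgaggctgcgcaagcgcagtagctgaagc
Rpl10l: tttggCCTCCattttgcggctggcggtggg
Rpl39l: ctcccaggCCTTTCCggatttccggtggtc
Rpl3l: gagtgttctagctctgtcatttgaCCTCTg
Rps6 encodes the small subunit protein phosphorylated by S6 kinase and Rpl38 a large subunit protein, and their runs begin 1 base before the start and at the first base, respectively. Rpl27a, Rpl31 and Rps25 were among the members whose courses were most like those of the others. Rps25 has no such run in its stretch, but the stretch opens with pyrimidines, so a C just upstream would not be seen. The RefSeq start used for Rps25 lies 575 bases from its gene start in GENCODE. Rpl7l1 has no marked run in its stretch, whereas the run of Rpl39l is 7 bases long and ends directly before the start. Rpl10l and Rpl3l have runs of 5 bases, which begin 10 bases before the start and at base 10 of exon 1, respectively.

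Promoters were at hand for 65 members, as 77 promoters of 300 bases each. A C followed by at least 7 pyrimidines began within 20 bases of the start in 42.9% of these promoters and in 14.5% of all 32851 promoters. A C at the first base followed by at least 4 pyrimidines was found in 18.2% and 2.5%, respectively. CCGGAAG, the core bound by ETS factors such as GABPA, was found on either strand in 35.1% of member promoters and 8.86% of all. TATAAA was found in 9.09% of member promoters, beside 13.6% of all. These are counts of letters in a window around annotated starts, and for some genes the RefSeq and GENCODE starts lie far apart.

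The ribosomal protein genes took a large part of each library. Their reads made up 5.05% to 9.57% of all counted reads per library, with a median of 6.48% over the 42 libraries. Of the 100 genes with the highest mean level, 31 were members, and between 13 and 45 members were in the top 100 of a single library. The median canonical member had a mean level of 9.71 log2 CPM, beside 4.33 for the median of all genes, and canonical means ran from 6.66 for Rpl29 to 11.57 for Rpl4. Counted reads per library ran from 10120972 to 51652434 with a median of 29692082, and the lowest count of a canonical gene in any library was 1007 reads, for Rpl29.

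One library stood apart for these genes. In 42 h B all 85 members lay above 42 h A, by a median of 0.67, and the members' share of reads was 8.95% in B and 6.06% in A. Other genes moved with them in that library: the median of 165 short, abundant genes that are no members lay 0.60 above its own mean, beside 0.63 for the members and 0.60 for 80 subunits of oxidative phosphorylation. The part of RNA quality or library preparation in this was not tested. Library 96 h B also differed from 96 h A, with 467 summed CPM of 5 primitive streak and mesoderm markers beside 98.7, so results that start or end at 96 h are given with 102 h as well. The stem cell marker Pou5f1, the pluripotency factor OCT4, had a mean of 9.98 log2 CPM at 0 h and 8.62 at 120 h, and the primitive streak gene T had -1.65 at 0 h and 5.77 at 102 h, with 6.76 in between at 96 h, so the labelled stem cells and their differentiation showed their markers. In bulk RNA, fewer cells of a type and less RNA per cell cannot be told apart.

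**Figure D1:**
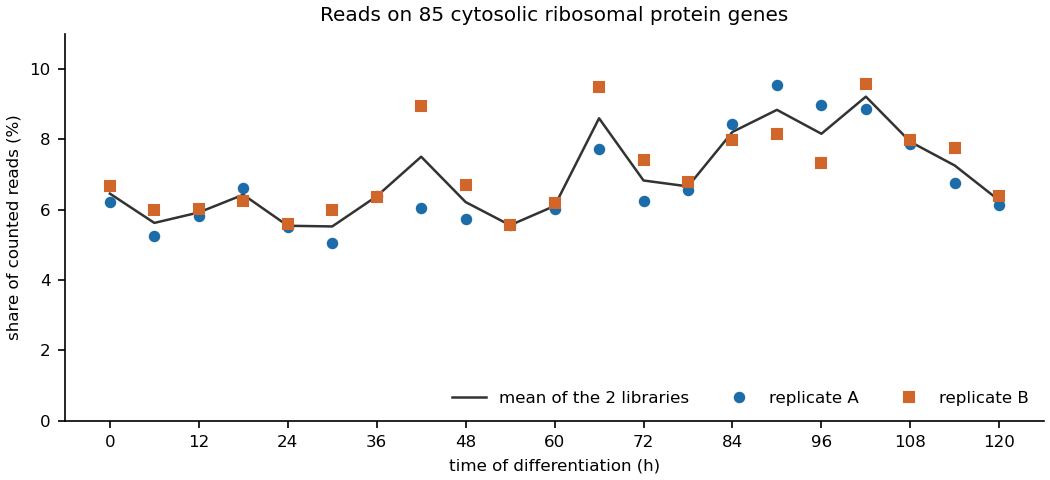
Share of counted reads (%, y axis from 0) on the 85 genes against time (h, x axis), with circles for replicate A, squares for replicate B and a line through the mean of both libraries. To 60 h the share lay between 5.05% and 6.70% in all libraries but 42 h B (8.95%), it reached 9.57% in 102 h B and it was 6.12% and 6.40% at 120 h.

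The members' share of reads was higher late in the course than early, with the highest mean at 102 h. At 0 h the members took 6.23% of reads in A and 6.69% in B. The share was 5.49% and 5.59% at 24 h, and 6.01% and 6.20% at 60 h. At 66 h it was 7.72% and 9.47%, above both libraries of 60 h. By 102 h it was 8.86% and 9.57%, the highest mean of the course (9.21% ± 0.50, SD, n = 2). At 120 h it was back at 6.12% and 6.40% (6.26% ± 0.20, SD, n = 2), close to the 6.46% ± 0.32 (SD, n = 2) of 0 h. Between 84 h and 108 h no library was under 7.34%.

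Over the whole course, fewer ribosomal protein genes passed the test than genes in general. With limma's F-test over the 21 time points and a Benjamini-Hochberg adjusted p under 0.0001, 26 of 85 members changed (30.6%), beside 74.6% of all genes. At an adjusted p under 0.05 the counts were 76 members (89.4%) and 94.2% of all genes. Without library 42 h B the stricter count was 39 members and 75.3% of all genes, and without 42 h A it was 49 and 76.8%. Of the canonical genes, 19 of 76 passed, 14 of 45 for the large subunit and 5 of 31 for the small subunit. Of the 8 paralogs 6 passed, as did Rps19bp1. The SD over the 21 time means had a median of 0.24 for canonical genes and 0.42 for all genes on the log2 scale, while the SD between duplicates was 0.19 and 0.18. The SD over the time means was below that of the median gene in 73 of the 76.

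The canonical members with the lowest p-values were Rps3, Rpl17, Rpl23a, Rpl12 and Rpl13a, named here after their values were seen. Rps3, a small subunit protein at the site where mRNA enters, which also takes part in DNA repair, had the lowest (adjusted p = 5.88e-08, limma). Its level was 10.18 in A and 10.32 in B at 0 h, 10.19 and 10.18 at 24 h, 11.04 and 11.06 at 102 h, and 10.35 and 10.42 at 120 h. Both libraries of 102 h lay above those of the other 3 time points. Its 24 h and 102 h means, the lowest and the highest of its course, were 0.86 apart on the log2 scale. Adjusted p was 8.78e-07 for Rpl17, 1.04e-06 for Rpl23a and 1.68e-06 for Rpl13a, all of the large subunit. Rpl11, which with Rpl5 binds MDM2 when ribosome assembly is disturbed, passed too (adjusted p = 1.56e-05). It had 9.46 and 9.56 log2 CPM at 0 h, 10.19 and 10.13 at 102 h, and 9.49 and 9.48 at 120 h.

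**Figure D2:**
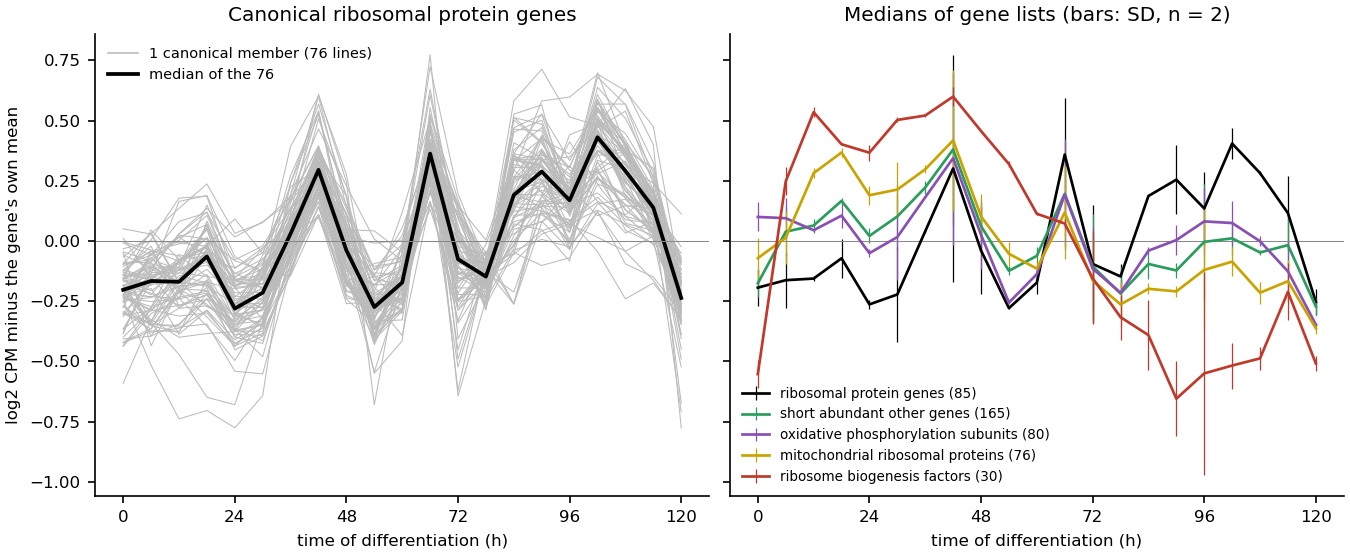
Log2 CPM minus the gene's own mean over the course (y axes) against time (h, x axes). On the left are the 21 time means of each of the 76 canonical genes (grey) and their median (black). On the right is the median of each gene list as mean with SD of 2 libraries. The canonical genes run close together, with highs of the time means near 42 h, 66 h and 102 h. The high near 42 h comes from replicate B, where the members' median on this scale was 0.63, beside -0.03 in replicate A. Ribosome biogenesis factors are high from 6 h to 60 h and low from 72 h on.

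The canonical genes moved together. Centred on its own mean, each was compared with the median of the other members over the 42 libraries, which share depth and duplicate effects, so the coefficients describe these libraries. Pearson's r had a median of 0.886 over the 76 genes and was above 0.8 in 52. Among the members most like the others were Rpl27a (0.973), Rpl31 (0.970), Rps25 (0.958) and Rpl18 (0.957). Rpl27a, of the large subunit, had 9.64 and 9.83 log2 CPM in A and B at 0 h, 10.25 and 10.12 at 90 h, 10.35 and 10.53 at 102 h, and 9.54 and 9.65 at 120 h. The libraries of 90 h and 102 h thus lay above those of both ends of the course. The lowest coefficient of a canonical gene was 0.402, for Rpl21.

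The order of the canonical genes by level was much the same at all time points. Over the 76 canonical genes, Spearman's rho between the time means of 2 time points was at least 0.933 over the 210 pairs, and it was 0.979 between 0 h and 120 h. Per kilobase of transcript, the mean level was highest for Rps12 (11.31 log2 CPM per kb), Rpl13 (11.09), Rpl23a (11.04), Rpl4 (10.95) and Rpl41 (10.94). The canonical median was 9.99 with quartiles of 9.64 and 10.47, and the lowest was Rpl29 at 7.44. The large and the small subunit had medians of 9.97 and 10.20 per kb. The reads of large subunit genes over those of small subunit genes had a ratio of 1.41 in the median library, from 1.35 in 102 h B to 1.48 in 54 h A, with an SD between duplicates of 0.02.

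Some canonical genes changed least. The SD over the 21 time means was among the smallest for Rpl4 (0.15), Rplp2 (0.15), Rpl7a (0.15) and Rpl21 (0.16). Rpl4, whose protein lines the exit tunnel of the large subunit, had 11.49 and 11.46 log2 CPM in A and B at 0 h, 11.76 and 11.90 at 102 h, and 11.46 and 11.44 at 120 h. Its 102 h libraries lay above the other 4, by less than for Rps3. Rplp0, Rplp1 and Rplp2, which build the stalk that recruits translation factors, had likeness coefficients of 0.528, 0.781 and 0.847. Their highest time means fell at 42 h for Rplp0 and Rplp1 and at 102 h for Rplp2. The highest time mean of the course fell at 102 h in 43 of the 76 canonical genes, at 42 h in 14, at 66 h in 9 and at 90 h in 5. By single libraries, 42 h B held the highest value of 37 canonical genes, 66 h B that of 16 and 102 h B that of 11.

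Over the first 6 h after induction no canonical gene passed the test, while factors that build ribosomes rose. The paralog Rpl7l1 was the 1 member that changed, with 1 of 85 rising beside 11.8% of all genes (26.3% called in either direction). No canonical gene passed an adjusted p of 0.05 (58% of all genes did), and the 2 members at an unadjusted p under 0.05 (62% of genes) were Rpl7l1 and Rps19bp1, both outside the canonical list. The median change of the 85 was 0.01 on the log2 scale, beside -0.05 for all genes, and 45 of 85 were positive. Scaled to the reads of all other genes, the medians were -0.22 for the members and -0.28 for all genes, so the sign of the members' median depended on the scaling. It also depended on single libraries, with -0.08 without 6 h B, -0.04 without 0 h A, 0.08 without 0 h B and 0.09 without 6 h A. Of 30 ribosome biogenesis factors, 12 rose over the same 6 h and none fell, with a median change of 0.80. Rrs1, needed for large subunit assembly, rose by 1.41 ± 0.15 (SE), and Tsr1, a small subunit maturation factor, by 1.23 ± 0.10 (limma adjusted p = 1.25e-08 and 5.11e-11). Of 14 genes of the RNA polymerase I machinery 5 rose, among them Ubtf, the factor that binds ribosomal DNA, by 1.09 ± 0.13. Of a list of 18 genes, named for mTOR and terminal oligopyrimidine regulators but also holding Myc, a transcription factor of growth genes, 7 rose. The largest rise was that of Myc (3.15 ± 0.34). None of 16 translation factors with the same type of mRNA start as ribosomal protein genes passed, though 5 did at an adjusted p under 0.05. Of the ribosomal proteins under other symbols, Fau and Rack1 had changes of -0.15 ± 0.25 and -0.04 ± 0.13, neither past the threshold.

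**Figure D3:**
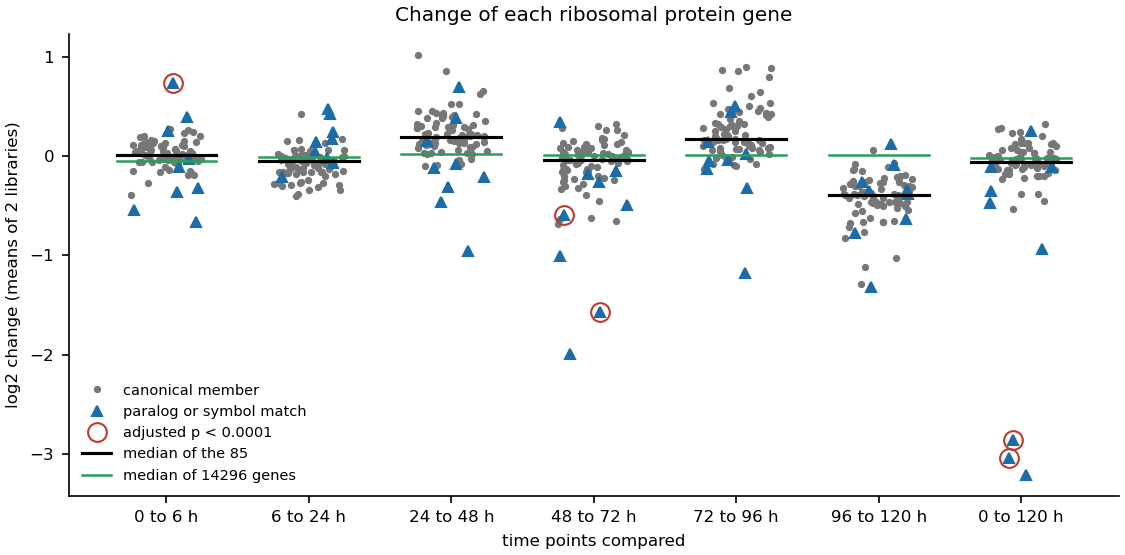
Log2 change between the time points on the x axis, as the difference of means of 2 libraries, for each canonical gene (grey points) and each paralog or symbol match (blue triangles), with black bars for the median of the 85 and green bars for that of all 14296 genes; red rings mark an adjusted p under 0.0001. The rings fall on Rpl7l1, Rpl10l and Rpl3l only, and the 96 h to 120 h median is -0.39.

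Through the next days no canonical gene passed the threshold in any of the fixed comparisons, which share time points with their neighbours. Between 6 h and 24 h none of the 85 members changed (11.4% of all genes did), and 6 passed an unadjusted p of 0.05, beside 45.7% of genes. Between 24 h and 48 h the count was again 0 (8.97% of all genes), with 10 at an unadjusted p of 0.05, beside 38.7%. At an adjusted p under 0.05, 4 members rose between 24 h and 48 h (17.2% of genes), namely Rps27 (0.86 ± 0.28), Rps9 (0.43 ± 0.15), Rpl14 (0.42 ± 0.15) and Rpl9 (0.52 ± 0.19), named after their values were seen. At any of the 20 steps of 6 h, Rpl7l1 at the first step was the 1 member called, beside 29.3% of all genes. The median change of the members was -0.05 from 6 h to 24 h, with -0.15 without 6 h A and -0.00076 without 6 h B. It was 0.19 from 24 h to 48 h, with 0.31 without 48 h A and 0.11 without 48 h B. Both libraries of 48 h lay above both of 24 h for 49 of 85 members, beside 39.4% of all genes.

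From 48 h to 72 h no canonical gene passed, while 2 paralogs and 9 biogenesis factors fell. The 2 members that fell, Rpl10l and Rpl7l1, stand beside 3.78% of all genes that fell (9.38% in either direction). Leaving out any 1 of the 4 libraries of 48 h and 72 h ended both calls. Of the biogenesis factors 9 of 30 fell and all 30 had a negative change, with a median of -0.57. Bop1, a large subunit processing factor, fell by 1.42 on the log2 scale (SE 0.18) and Rrp9, which binds the U3 small nucleolar RNA, by 1.23 (SE 0.13). Of the RNA polymerase I genes Rrn3 fell by 1.01 and Polr1b by 0.94. The median canonical change was -0.03, the median of the 85 members ran from -0.21 without 72 h B to 0.14 without 72 h A, and 2 canonical genes, Rps13 and Rplp1, were among the 6 members that fell at an adjusted p under 0.05 (19.4% of genes).

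The members stood higher at 66 h than at the time points on either side. Between 60 h and 66 h the change was positive for 84 of 85 members with a median of 0.51, and between 66 h and 72 h it was positive for none with a median of -0.43. No member passed an adjusted p of 0.0001 in either step, beside 0.063% and 0.028% of all genes. At an unadjusted p under 0.05 there were 61 members in the first step and 54 in the second, beside 21.3% and 22% of all genes. Both libraries of 66 h lay above both of 60 h for 76 of 85 members, beside 29.2% of genes, and above both of 72 h for 53, beside 19.8%. These steps had the members' largest median rise and fall of the 20 steps, so the counts describe a high point and do not test it. Replicate B was the higher at 66 h for 78 members, by a median of 0.34. In 66 h B the median of the 165 short abundant other genes also lay 0.35 above its mean, and that of the oxidative phosphorylation subunits 0.36, beside 0.52 for the members. In 66 h A these were 0.04, 0.03 and 0.19. The part of such genes' common movement in the members' result was not tested.

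The members were highest at 102 h and lower again at 120 h, while the biogenesis factors were low at both. From 72 h to 96 h none of the 85 changed at an adjusted p under 0.0001 (3.39% of all genes), with 24 at an unadjusted p of 0.05 (40.2% of genes), and 14 rose at an adjusted p under 0.05 (15.1% of genes). From 96 h to 120 h none changed (1.94%), with 45 at an unadjusted p of 0.05 (31.3% of genes), and 14 fell at an adjusted p under 0.05 (8.28% of genes). The comparisons with 102 h in place of 96 h were chosen after the courses were seen. From 72 h to 102 h, 3 members rose at an adjusted p under 0.0001 (4.71% of genes) and 44 at 0.05 (17.3%). From 102 h to 120 h no member passed 0.0001 (1.08% of genes called), 54 fell at 0.05 (6.92%), and 74 passed an unadjusted p of 0.05 (28.8%). Since 102 h was picked as a high point, these counts describe the wave and do not test it.

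Library by library, 102 h was set against 72 h and 120 h, which are not its nearest time points. At those nearest, the members' median change was smaller, 0.22 from 96 h to 102 h and -0.13 from 102 h to 108 h. Both libraries of 102 h lay above both of 120 h for 81 of 85 members, beside 29.9% of all genes, and above both of 72 h for 63, beside 29.7%. Both libraries of 96 h lay above both of 120 h for 72 members, beside 22.7%, and above both of 72 h for 29, beside 22.5%. The medians from 72 h to 102 h were 0.47 for large and 0.51 for small subunit genes, and from 96 h to 120 h they were -0.39 for both. Relative to the median gene, the members' change was 0.48 from 72 h to 102 h and -0.61 from 102 h to 120 h. Over 72 h to 102 h the short abundant other genes had a median change of 0.07 and the oxidative phosphorylation subunits 0.25, while biogenesis factors had -0.36 with 16 of 30 falling at an adjusted p under 0.05, beside 16.5% of all genes. From 102 h to 120 h the median change was -0.60 for the members, -0.26 for the short abundant other genes, -0.46 for the oxidative phosphorylation subunits, -0.27 for the mitochondrial ribosomal proteins and 0.02 for the biogenesis factors. The 5 streak and mesoderm markers summed to 60.6 and 68.9 CPM at 72 h, 124 and 110 CPM at 102 h and 75.2 and 63.6 CPM at 120 h, none at 0 reads in both libraries. The 12 stem cell and epiblast markers summed to 3278 and 3439 CPM at 72 h, 2236 and 2316 CPM at 102 h and 2446 and 2336 CPM at 120 h. The 4 neuroectoderm markers had 106 and 93.0 CPM at 72 h, 247 and 181 CPM at 102 h and 207 and 192 CPM at 120 h. The 6 genes listed as fibroblast feeder markers had 27.6 and 26.3 CPM at 72 h, with 1 of the 6 at 0 reads in both libraries. They had 25.5 and 29.5 CPM at 102 h and 102 and 91.7 CPM at 120 h. At 0 h they had 24.3 and 28.1 CPM, and at 42 h 7.29 and 6.89 CPM. Which cells these reads came from was not tested. The 4 endoderm markers stayed between 5.21 and 12.6 CPM at these 3 time points. The part of these cell types in the members' result was not tested.

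The 3 members that rose from 72 h to 102 h at the stricter threshold were Rpl36, Rps10 and Rps27rt. Rpl36, of the large subunit, had 8.24 in A and 7.65 in B at 72 h, 9.19 and 9.16 at 102 h, and 8.21 and 8.51 at 120 h (log2 CPM). Both 102 h libraries lay above the other 4, and the rise was 1.23 ± 0.20 (SE). The 72 h mean of Rpl36, 7.95, was the lowest of its course, beside 8.95 at 66 h and 8.48 at 78 h. Rps10, of the small subunit, had 9.09 and 9.02 at 72 h, 9.77 and 10.02 at 102 h, and 9.10 and 9.40 at 120 h. Its groups at 72 h and 102 h did not overlap, and the rise was 0.84 ± 0.14. The 72 h mean of Rps10, 9.05, was also the lowest of its course. Of the Rps10 transcript, 89.5% of 100-base words also occur in transcripts of other genes, so its reads are less certain. This holds for many members: the median share of such words was 41.4%, with 37 members above 50% and 10 at none. How the authors' counting treated reads with several matches is not given in the sources used here.

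Members known for more than their place in the ribosome, were picked by role and not by value. Rps6, the S6 kinase target whose start is printed above, had 10.22 and 10.21 log2 CPM in A and B at 0 h, 10.81 and 10.86 at 102 h, and 10.30 and 10.31 at 120 h. Rps19, the gene most often mutated in Diamond-Blackfan anemia, had 8.62 and 8.92 at 0 h, 9.71 and 9.81 at 102 h, and 8.85 and 8.96 at 120 h. Rpl38, which in mouse embryos is needed for translation of Hox mRNAs, had 7.84 and 7.96 at 0 h, 8.52 and 8.78 at 102 h, and 7.75 and 7.88 at 120 h. In each of these the 102 h libraries lay above the other 4 just given. Rpsa, also known as the laminin receptor precursor, had 11.24 and 11.29 at 0 h, 11.65 and 11.89 at 102 h, and 11.20 and 11.35 at 120 h, again with both 102 h libraries above the other 4. Rps27a, made as a fusion with ubiquitin, was higher at 66 h (9.76 and 9.74) than at 102 h (9.38 and 9.63), and it had 8.81 and 8.66 at 120 h. From 102 h to 120 h the changes were -0.53 ± 0.17 for Rps6, -0.86 ± 0.29 for Rps19, -0.84 ± 0.23 for Rpl38, -0.50 ± 0.14 for Rpsa and -0.77 ± 0.29 for Rps27a (SE), and all but the last passed an adjusted p of 0.05 (limma).

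Between the start and the end of the course few members passed. From 0 h to 120 h, 2 members fell (10.1% of all genes fell, 23% were called in either direction), both of them paralogs, Rpl10l and Rpl3l. The median change of the 85 was -0.06, beside -0.02 for all genes, and it was -0.11 without 0 h A and -0.0020 without 0 h B. At an adjusted p under 0.05, 7 members were called beside 52.2% of genes, and Rpl29 was the 1 canonical gene among them, with a rise of 0.29 ± 0.12. Over the same span the oxidative phosphorylation subunits had a median of -0.47 and 42 of 80 fell at an adjusted p under 0.05, and the mitochondrial ribosomal proteins had -0.32 with 31 of 76, beside 25.6% of all genes that fell.

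**Figure D4:**
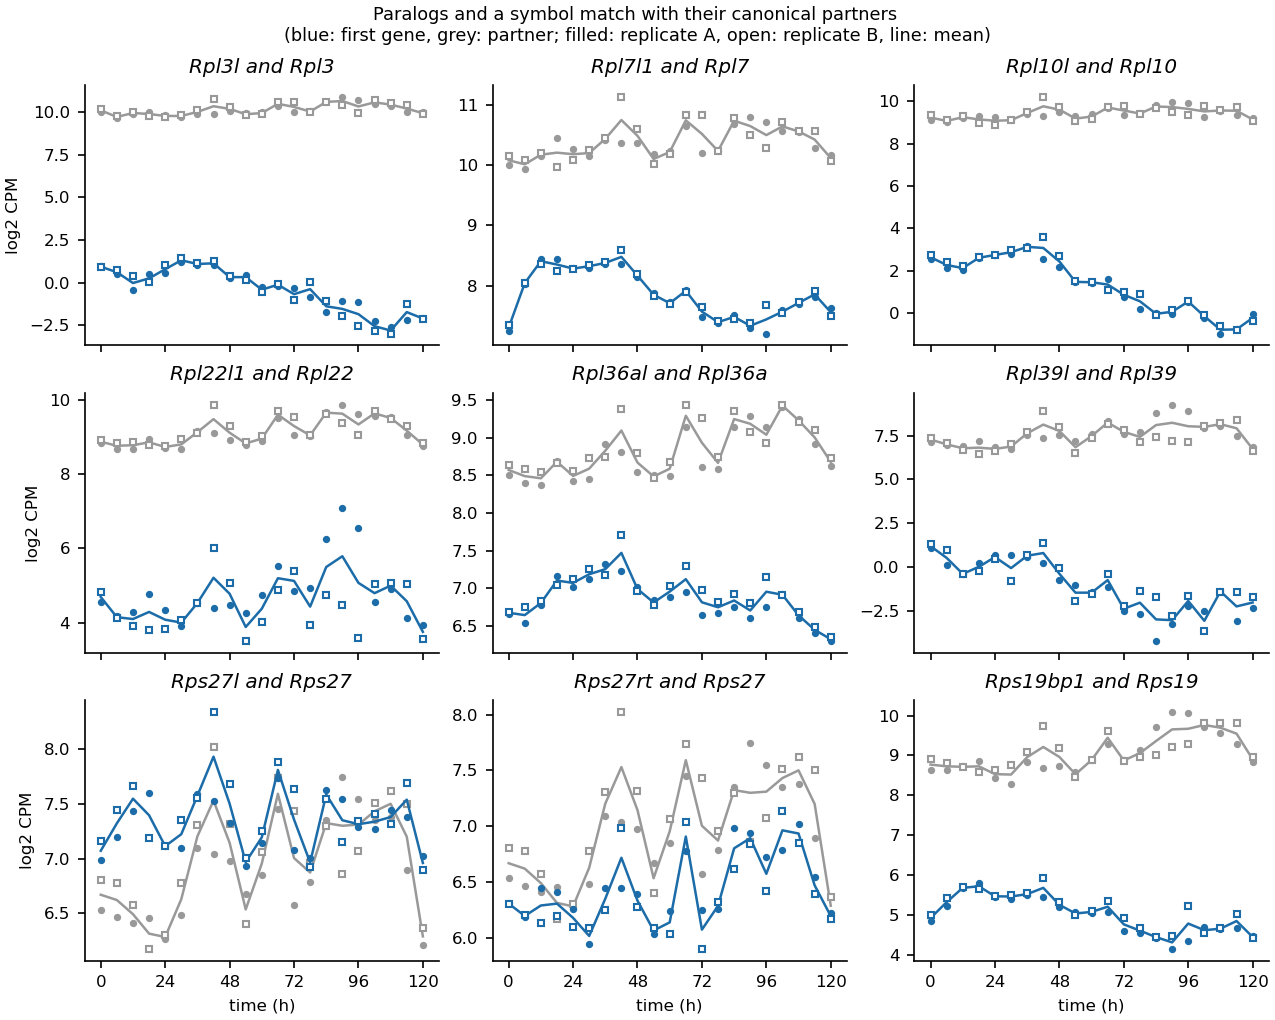
Log2 CPM (y axes) against time (h, x axes) for each paralog, and for Rps19bp1, in blue with its canonical partner in grey; filled points are replicate A, open points replicate B and lines their means. Rpl3l, Rpl10l and Rpl39l lie lower at 120 h than at 0 h in both libraries, with changes of -3.04, -2.86 and -3.21, and Rpl7l1 is high from 6 h to 48 h.

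Some paralogs took courses of their own, while Rpl22l1 had a likeness of 0.648 to the other members. Rpl7l1 (chr17:46773907-46782672, minus strand), which takes part in large subunit maturation in the nucleolus, had 7.25 and 7.35 log2 CPM in A and B at 0 h. It had 8.03 and 8.05 at 6 h, 8.45 and 8.36 at 12 h, 8.14 and 8.19 at 48 h, 7.49 and 7.65 at 72 h, and 7.62 and 7.49 at 120 h. The libraries of 6 h to 48 h just given lay above all those of 0 h, 72 h and 120 h. It rose by 0.74 ± 0.10 from 0 h to 6 h (limma adjusted p = 1.05e-06) and fell by 0.60 (SE 0.10) from 48 h to 72 h. Its likeness to the other members was -0.115. Per length, Rpl7l1 made up 11.5% of the sum of Rpl7l1 and Rpl7 at 0 h, 20.7% at 12 h and 8.25% at 90 h. Its partner Rpl7, a canonical large subunit gene, had 10.14 and 10.20 log2 CPM at 12 h, 10.79 and 10.50 at 90 h and 10.17 and 10.06 at 120 h.

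Rpl10l and Rpl3l, which are best known from testis and striated muscle, were low throughout and fell. Rpl10l (chr12:66283379-66284401, minus strand), an autosomal retrogene of X-linked Rpl10 that serves in male meiosis, had 2.54 and 2.74 log2 CPM at 0 h, from 137 and 160 reads. It had 2.18 and 2.70 at 48 h, 0.75 and 0.99 at 72 h, and -0.06 and -0.39 at 120 h, the last from 26 and 18 reads. The groups of 0 h, 72 h and 120 h did not overlap, and the change from 0 h to 120 h was -2.86 ± 0.26 (limma adjusted p = 4.97e-10). From 48 h to 72 h it was -1.57 ± 0.26. As a percentage of the pair with Rpl10 per length, it went from 0.80% to 0.12%.

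Rpl3l (chr17:24727820-24736143, plus strand), which replaces Rpl3 in heart and skeletal muscle, had 0.98 and 0.88 log2 CPM at 0 h, from 46 and 44 reads, and -2.09 and -2.14 at 120 h, from 6 and 5 reads. The change was -3.04 ± 0.43 (limma adjusted p = 1.09e-06), at the edge of what the depth of these libraries resolves, where 3 reads correspond to 0.057 to 0.316 CPM. Rpl39l (chr16:10170226-10174911, plus strand), a testis-enriched paralog of Rpl39, had 50 and 59 reads at 0 h and 5 and 7 reads at 120 h. Its change of -3.21 ± 0.66 missed the threshold (limma adjusted p = 1.75e-04). Rpl3l, Rpl10l and Rpl39l also had the 3 lowest levels per length of all members, -0.88, 1.31 and -0.17 log2 CPM per kb, and the largest SDs over the time means, 1.29, 1.33 and 1.37. All 3 had negative likeness coefficients, -0.387, -0.332 and -0.255.

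The other paralogs are given by their share of the pair with their partner. Rps27l, a p53 target, made up 47.7% of its pair with Rps27 per length at 0 h, 59.4% at its highest time point and 38.9% at its lowest, and its course did not pass the stricter threshold (limma adjusted p = 0.00119). Rpl36al made up 19.7% of its pair with Rpl36a at 0 h and between 13.2% and 25.7% over the course, and its course passed (limma adjusted p = 2.86e-06) with a likeness of 0.265 to the members. Rps27rt and Rps27 are near-identical, with 89.5% and 98.4% of their 100-base words found in other transcripts, so the division of reads between them is uncertain. Since Rps27 is also the partner of Rps27l, the percentages given for Rps27l are uncertain for the same reason. Rps19bp1, no ribosomal protein, had 5.23 and 5.42 log2 CPM at 6 h, 5.79 and 5.65 at 18 h, and 4.15 and 4.48 at 90 h, a course with a likeness of -0.174 to the members.

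**Figure D5:**
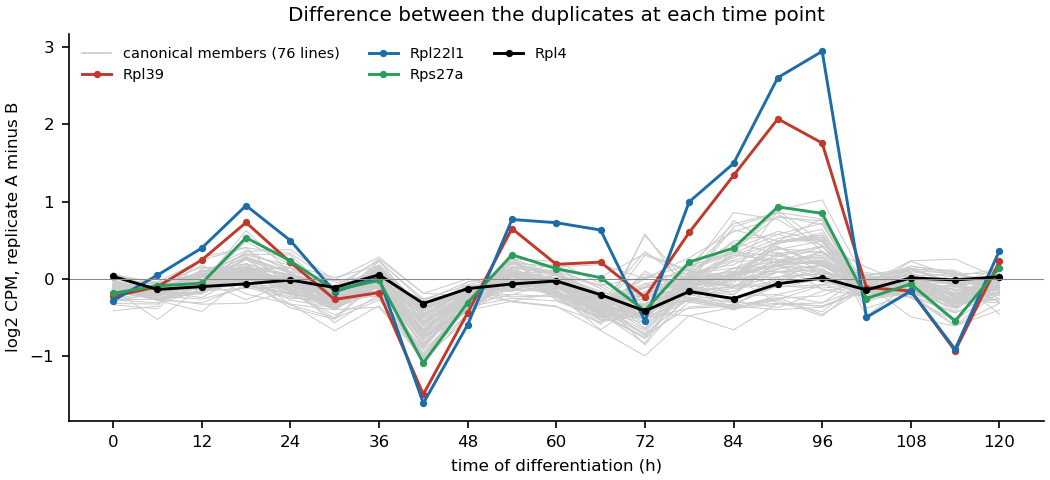
Log2 CPM in replicate A minus that in replicate B (y axis) at each time point (h, x axis), for the 76 canonical genes (grey) and for Rpl39, Rpl22l1, Rps27a and Rpl4 in colour. Rpl39 and Rpl22l1 move together, at -1.50 and -1.61 at 42 h and 2.07 and 2.61 at 90 h, while Rpl4 stays within 0.42 of 0.

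Rpl39 and Rpl22l1 were among the 3 members with the largest SD between duplicates. Rpl39, a short protein of the exit tunnel, had 7.38 in A and 8.87 in B at 42 h, 9.26 and 7.19 at 90 h, 8.91 and 7.15 at 96 h, and 7.94 and 8.05 at 102 h (log2 CPM). The duplicates thus lay apart in opposite directions at 42 h and 90 h and together at 102 h. Rpl22l1, the paralog of Rpl22, had 4.41 and 6.02 at 42 h and 7.09 and 4.49 at 90 h. Its duplicates had an SD of 0.79 and its course did not pass (limma adjusted p = 0.305), and Rpl39 had an SD of 0.58. Over the 21 time points the A minus B differences of both genes had a Pearson's r of 0.974. With Rpl22l1, 25 of the 76 canonical genes (32.9%) had an r above 0.8, beside 299 of 9484 genes with a mean level above 3 log2 CPM (3.15%). The canonical genes ran from -0.481 upwards with a median of 0.740. Among genes that are no members, Ndufc1, Uqcc2 and Lsm8 had 0.960, 0.951 and 0.946. Each of these differences sets libraries of the same time point side by side.

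Canonical genes with and without the long pyrimidine run near the start had similar medians. The 30 canonical genes that hold the run within 20 bases of the start had a median likeness of 0.875, beside 0.889 for the 26 without. Their median changes from 72 h to 102 h were 0.47 and 0.48, and from 96 h to 120 h both were -0.37. These medians are given as a description, and the difference between the groups was not tested.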

How the data were processed

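RNA was measured in 42 libraries, grouped by the time point and replicate letter in the labels. Per the labels and methods, the authors used Trim Galore! for trimming, Tophat2 for alignment (mm10) and HTSeq for counts on GENCODE vM2 genes, retained genes above 1 CPM in at least 2 samples, scaled for library size with edgeR and applied voom. Versions are not given in the sources used here. The deposited values are log2 CPM, and voom's formula returned whole reads to within 2.91e-08 of a read.

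Members were found by symbol in GENCODE vM21, which matched 14177 of 14296 genes. limma (3.58.1, R 4.3.3; lmFit, eBayes with a trend) was fitted to the log2 values with 21 time points as groups and 21 residual degrees of freedom. Benjamini-Hochberg adjustment ran over all genes within each contrast, with a threshold of 0.0001 as in the study. On simulated data of 14296 genes for 0 h to 6 h, 181 of 200 genes changed by 2-fold were called, with 0 false calls among the unchanged genes. For the median canonical gene, the highest and lowest time means of the course lay 0.82 log2 units apart, which is less than 2-fold. The recovery of 2-fold changes therefore does not show how often changes of that size would be called. The simulation also gave all genes the same dispersion, drew them independently and changed only genes above a level limit. Neither the recovery nor the false calls thus cover movement that many genes of a library share, as in 42 h B, or the low paralogs. Likeness is Pearson's r over libraries. Levels per kb use the length of the APPRIS principal transcript (the shortest of several, or the longest coding transcript where none is marked). Promoters came from RefSeq. Members, lists and tests were chosen with earlier results of these data known. Named genes are the paralogs with partners, the 3 largest rises and falls per contrast among called members, the 5 highest and lowest by level per length, likeness and SD over time means, and the 2 largest changes per list; other genes are named for their known roles or after their values were seen. Alternatives covered the trend, thresholds, scalings, a level filter, the canonical genes alone, voom weights, a replicate block and leaving out each library. Results of a few genes are not reported here.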

Additional observations from a re-analysis of the deposited data

How the results depend on the processing

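Over the whole course the count of 26 members was 17 without the trend, 16 with median centred values, 76 at an adjusted p under 0.05 (94.2% of all genes), and 18 to 49 when 1 library was left out (49 without 42 h A). Over the most variable genes the letters A and B were not shown to pair the libraries (mean correlation of deviations 0.036, lowest -0.532, over 210 pairs of time points). For the members B was mostly the higher, since their median, centred on each gene's mean, was above B in A at 5 of 21 time points. With a replicate block 38 members passed over the course (80.4% of all genes). At an adjusted p under 0.05 the counts, each beside the share of all genes, were 1 from 6 h to 24 h (38.4%), 4 from 24 h to 48 h (29.9%), 6 from 48 h to 72 h (40.9%), 15 from 72 h to 96 h (28.9%), 14 from 96 h to 120 h (17.8%), 7 from 0 h to 120 h (52.2%) and 34 at any 6 h step (75.6%). From 48 h to 72 h the count of 2 was 1 without the trend (8.69% of all genes). It was 1 with p adjusted over all contrasts together (7.45%) and 0 when scaled to the reads of other genes (10.1%). From 0 h to 120 h the count of 2 was 1 once genes with a mean under 1 log2 CPM were left out (23% of the genes kept). With canonical genes alone the counts from 0 h to 6 h, 48 h to 72 h and 0 h to 120 h and at any 6 h step were 0. From 72 h to 102 h, in place of 96 h, 3 members passed (7.23% of all genes). The members' median change ran from 0.0047 without 72 h A to 0.40 without 72 h B from 72 h to 96 h, and from -0.47 without 96 h B to -0.26 without 96 h A from 96 h to 120 h. The causes were not tested. For the counts and the share of reads together, 74 comparisons with other settings kept the result and 19 did not. With 1 library left out these were 107 and 5. A count was taken as kept within 1.5 times or where it stayed at 0, and the share of reads within the SD between duplicates. Many of these counts were at or near 0, so keeping them shows little. The results are limited by 2 libraries per time point, by the spread at 42 h and, for the low paralogs, by few reads.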
